A study of Homo sapiens with 52 samples.

Results

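Smooth muscle actin, calponin, myosin light chain, tropomyosin and caldesmon genes were followed across NRP1 knock-down in claudin-low breast cancer cells. The members were 10 genes chosen by name out of the 78894 genes in the gene-level table, namely ACTA2, ACTG2, TAGLN, CNN1, CNN2, MYL9, TPM1, TPM2, TPM4 and CALD1. The rule itself used no measured value, but the members were chosen with earlier results of these data known, so their share of calls is a description. All 10 members passed the low-count filter in all 3 cell lines. In MDA-MB-231, ACTG2 had 40 and 51 counts in 2 shNRP1#3 libraries that held RNA of another line and at most 12 in any other library, and it failed the filter with that RNA subtracted. TAGLN was the member that changed most widely. It rose past the test in 6 of 12 comparisons of an NRP1-targeting sequence with its non-targeting (NT) control, and its fitted change was positive in 12 of 12. Over all 10 members and 12 comparisons, 27 tests out of 120 called a member higher and 3 called a member lower, which is 25% of tests, where 11.3% of the tests over all genes were called. The higher calls of TPM2 and ACTG2 in MDA-MB-231 shNRP1#3 were lost when RNA of another line was subtracted.

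The products of these genes form and regulate contractile actin filaments. ACTA2 and ACTG2 encode smooth muscle actins, TAGLN, CNN1 and CNN2 encode actin-binding proteins of the calponin family, MYL9 encodes a regulatory light chain of myosin II, the tropomyosins TPM1, TPM2 and TPM4 lie along the filament, and CALD1 encodes caldesmon, which binds actin, myosin and tropomyosin. Many genes of this kind are targets of serum response factor (SRF), which binds a DNA element called the CArG box, and of its cofactors of the myocardin family (MRTFA, MRTFB and MYOCD). The cofactors MRTFA and MRTFB are held by unpolymerised actin and are freed for the nucleus when actin is assembled. In the breast this set is known from myoepithelial cells and from activated fibroblasts.

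The 3 established cell lines were SUM159PT (17 samples), MDA-MB-231 (18 samples) and HS578T (17 samples). Each line had 3 siRNA groups (siNT, siNRP1#3 and siNRP1#5, at 20 nM), whose RNA was taken 72 hrs after transfection. It also had 3 lentiviral hairpin groups (shNT, shNRP1#3 and shNRP1#5), which had passed puromycin selection and whose RNA was taken 48 hrs after the cells were seeded. The labels give siNRP1#3 as directed at transmembrane NRP1 alone and siNRP1#5 at total NRP1. By the study's methods the hairpins of the same number have the same aims. Sequence #5 is the same in both deliveries, while siNRP1#3 and shNRP1#3 are different sequences at offset sites. Groups had 3 samples. The exceptions were siNRP1#5 in SUM159PT, with only replicates 2 and 3, and shNRP1#3 in HS578T, with only replicates 1 and 2. Replicates were repeat transfections or consecutive passages of transduced cells, so the p-values measure the spread between such samples of a line. In bulk RNA, fewer cells with a high level and less RNA per cell cannot be told apart.

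Expected counts per sample summed to between 25310443 and 72003442 (median 44804505). Claudin-low cells are defined by low claudin-3, -4 and -7 and E-cadherin with a mesenchymal profile. VIM was at 1311 to 6093 TPM over the samples of the 3 lines, and E-cadherin (CDH1) was at most 3.33 TPM in any of them. MDA-MB-231 had CLDN3 at 2.87 to 13.4 TPM, CLDN4 at 62.6 to 226 TPM and CLDN7 at 10.4 to 61.5 TPM, with medians above those of the other lines, and also the highest median of ZEB1 (5.24 to 19.7 TPM over its samples). No line of another subtype was on hand to set a low level. NRP1 fell past the test in 11 of 12 comparisons, and in HS578T shNRP1#3 its log2 change was −1.59 ± 0.29 (SE) with an adjusted p of 0.069 by edgeR's quasi-likelihood test. In MDA-MB-231 siNRP1#3, the NRP1 TPM (24.8, 29.5 and 31.3) overlapped that of siNT (25.6, 29.3 and 31.6), while the fit on counts gave −0.70 ± 0.15 (adjusted p 0.00173). Gene-level NRP1 also counts the soluble form, at which siNRP1#3 is not directed. Some libraries held RNA of another line, estimated from genes that the line in question lacks (3 genes for MDA-MB-231 RNA in HS578T, so that this estimate is coarse). The 3 HS578T siNRP1#5 libraries held between 12.0 and 22.6% MDA-MB-231 RNA, replicate 2 of them also 6.74% SUM159PT RNA, HS578T siNRP1#3 held 1.94 to 6.70% MDA-MB-231 RNA, and MDA-MB-231 shNRP1#3 replicate 3 held 2.33% SUM159PT and 1.90% HS578T RNA. Tests on those libraries are given below with and without that RNA where a call of a member turned on it, while TPM levels and list counts are not corrected for it.

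Promoter sequences are shown for 5 members because they show where the CArG box, the letters bound by SRF, lies at genes described below. RefSeq promoters (250 bases before to 50 bases after a start, GRCh38.p14) were on hand for 8 members with 15 starts. The 250 upstream bases were searched on both strands for the CArG box, here C C, then 6 bases that are each A or T, then G G. An exact box was found in 1.16% of 35116 promoters, and a box with 1 mismatch, that is a C or G among the 6 middle bases, in 5.96%. Mismatches in the outer bases were not searched. Among the 15 starts of the members, 3 held an exact box (ACTG2, CNN2 and TPM4) and 2 only a box with 1 mismatch (ACTA2 and CALD1). For TAGLN and MYL9 no sequence is shown. Bases that GENCODE places in an exon of the gene were left out of the printed windows. ACTG2 was among the 0.0313% of all promoters with more than 1 exact box. Capitals mark the boxes and the sequences are written 5′ to 3′ on the gene's strand.
ACTG2, chr2:73892758-73892944, plus strand, 187 bases ending 63 bases before the start, boxes beginning 110 and 73 bases before the start: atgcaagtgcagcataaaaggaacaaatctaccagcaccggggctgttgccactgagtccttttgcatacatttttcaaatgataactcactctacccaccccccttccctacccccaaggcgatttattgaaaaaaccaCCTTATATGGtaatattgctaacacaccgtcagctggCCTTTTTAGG
ACTA2, chr10:88952774-88953023, minus strand, 250 bases up to the downstream start, boxes with 1 mismatch beginning 121 and 71 bases before the start: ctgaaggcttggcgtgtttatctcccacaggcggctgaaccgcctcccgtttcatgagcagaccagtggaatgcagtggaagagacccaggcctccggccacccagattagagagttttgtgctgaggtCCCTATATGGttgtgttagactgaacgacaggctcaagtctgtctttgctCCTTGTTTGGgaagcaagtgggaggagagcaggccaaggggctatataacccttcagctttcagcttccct
CNN2, chr19:1026358-1026585, plus strand, 228 bases, box beginning 89 bases before the start: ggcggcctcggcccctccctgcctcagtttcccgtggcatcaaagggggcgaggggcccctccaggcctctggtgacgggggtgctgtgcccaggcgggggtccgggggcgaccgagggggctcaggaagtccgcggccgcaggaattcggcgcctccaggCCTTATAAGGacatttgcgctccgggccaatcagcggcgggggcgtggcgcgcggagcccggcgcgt
TPM4 at its upstream start, chr19:16067307-16067533, plus strand, 227 bases, box beginning 173 bases before the start: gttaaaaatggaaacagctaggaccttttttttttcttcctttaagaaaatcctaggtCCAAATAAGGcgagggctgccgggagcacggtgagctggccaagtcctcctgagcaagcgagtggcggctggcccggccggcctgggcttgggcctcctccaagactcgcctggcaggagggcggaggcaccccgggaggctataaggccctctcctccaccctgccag
The internal start of TPM1 is shown because MDA-MB-231 took most of its TPM1 from it, and no comparison of the starts by sequence is made. Its window held no box of either kind, which says only that those letters are not in it.
TPM1 at its internal start, chr15:63048265-63048426, plus strand, 162 bases: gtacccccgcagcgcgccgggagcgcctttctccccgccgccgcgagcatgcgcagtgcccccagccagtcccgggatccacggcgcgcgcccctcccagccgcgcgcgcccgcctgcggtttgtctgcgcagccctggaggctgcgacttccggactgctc
A match is a description of the letters and not a site of binding, and SRF binding was not measured.

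The members lie on 8 chromosomes of GRCh38. In GENCODE 44, ACTA2 spans chr10:88935074-88991339 on the minus strand, ACTG2 chr2:73892314-73919865, TAGLN chr11:117199370-117207464, CNN1 chr19:11538767-11550323, CNN2 chr19:1026586-1039068, MYL9 chr20:36541497-36551447, TPM1 chr15:63042620-63071915, TPM4 chr19:16067021-16103002 and CALD1 chr7:134744252-134970729, all on the plus strand, and TPM2 chr9:35681992-35690056 on the minus strand. ACTA2 overlaps FAS and STAMBPL1, and TAGLN overlaps PCSK7, on the opposite strand. The library kit kept strand and the quantification was set to use it. The actins and the tropomyosins are families of near-identical genes with pseudogenes, so that reads shared between their members were divided by the quantification and their levels are less certain for it.

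The first question was how high the contractile genes stood in each line without knock-down. By median HS578T had the highest TPM of 8 of the 10 members, MDA-MB-231 had ACTG2 near 0 and little TPM2, and SUM159PT had little TAGLN, MYL9 and CNN1. Levels are TPM, which is scaled per length, in the 6 NT controls of a line (3 siNT and 3 shNT), and changes are log2 fold changes from counts with TMM scaling. Between lines, 10 of 10 members were called higher in HS578T than in MDA-MB-231, where 70.2% of 23416 genes were called (34.9% higher), and 10 of 10 higher in HS578T than in SUM159PT, where 63.5% were called (29.8% higher). Between SUM159PT and MDA-MB-231, 8 members were called, 5 higher and 3 lower in SUM159PT, where 59.4% of genes were called (31.8% higher and 27.6% lower). Since most genes were called between lines, the sizes for single members carry the comparison, and calls and sizes both rest on the TMM scaling. The scales also parted outside the members. The cytoplasmic actin ACTB had a mean of 4830 TPM in the HS578T controls and 6320 TPM in those of MDA-MB-231. The fit on counts put HS578T at 0.34 ± 0.15 against MDA-MB-231 (adjusted p 0.0511 by edgeR).

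Among the actins, ACTA2 ran from 12.0 to 133 TPM in HS578T (median 28.7), from 5.94 to 21.9 TPM in SUM159PT (median 11.0) and from 2.96 to 9.11 TPM in MDA-MB-231 (median 5.68). The ranges of HS578T and MDA-MB-231 did not overlap, and those of the neighbouring pairs did. ACTG2 ran from 11.8 to 85.5 TPM in HS578T (median 19.1), from 1.06 to 33.2 TPM in SUM159PT (median 4.88) and from 0 to 0.20 TPM in MDA-MB-231 (median 0.08). In MDA-MB-231 that is 5 counts over the 3 siNT libraries and 12 over the 3 shNT libraries, so ACTG2 was near the limit of detection there.

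Of the calponin family, TAGLN ran from 79.9 to 410 TPM in HS578T (median 136), from 32.4 to 229 TPM in MDA-MB-231 (median 105) and from 1.50 to 122 TPM in SUM159PT (median 15.2). CNN1 was low everywhere, at 0.46 to 1.82 TPM in HS578T, 0.10 to 0.53 TPM in MDA-MB-231 and 0 to 0.15 TPM in SUM159PT. CNN2, the calponin of non-muscle cells, was above 146 TPM in every NT control of every line. For CNN2 the scale decided the order of HS578T and MDA-MB-231: the TPM ran from 209 to 280 in HS578T and from 251 to 346 in MDA-MB-231, while the fit on counts placed HS578T higher by 0.40 ± 0.13 (adjusted p 0.00442, lost without replicate 3).

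MYL9 ran from 332 to 1091 TPM in HS578T (median 550), from 289 to 595 TPM in MDA-MB-231 (median 437) and from 63.0 to 125 TPM in SUM159PT (median 104). SUM159PT lay below every NT control of the other lines. Its log2 change against MDA-MB-231 was −1.81 ± 0.26 (adjusted p 9.69e-08).

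TPM2 separated the lines most sharply among the tropomyosins. It ran from 673 to 1120 TPM in HS578T (median 806), from 368 to 622 TPM in SUM159PT (median 545) and from 7.48 to 19.2 TPM in MDA-MB-231 (median 9.19). The ranges of the 3 lines did not overlap, and HS578T exceeded MDA-MB-231 by 7.08 ± 0.27 on the log2 scale (adjusted p 9.29e-24). TPM1 and TPM4 overlapped between lines in TPM, with medians of 159, 171 and 104 TPM for TPM1 and 534, 508 and 506 TPM for TPM4 in HS578T, SUM159PT and MDA-MB-231. For TPM1 the order of HS578T and SUM159PT turned with the delivery, with mean TPM of 117 and 172 in siNT and of 230 and 148 in shNT. Over both deliveries the fit placed HS578T higher by 0.44 ± 0.17 (adjusted p 0.0242, lost without replicate 1 or 2). CALD1 medians were 94.7, 55.7 and 52.4 TPM in the same order, and SUM159PT and MDA-MB-231 did not differ past the test (0.39 ± 0.25, adjusted p 0.171). Between SUM159PT and MDA-MB-231 the calls of ACTA2 (1.35 ± 0.52), CNN1 (−2.67 ± 0.93) and TPM4 (0.37 ± 0.12) were each lost on leaving out a replicate number, namely 1 or 2 for ACTA2, 2 for CNN1 and 1 or 3 for TPM4. With a replicate block, ACTA2 had an adjusted p of 0.239 and CNN1 of 0.0771 there.

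**Figure D1:**
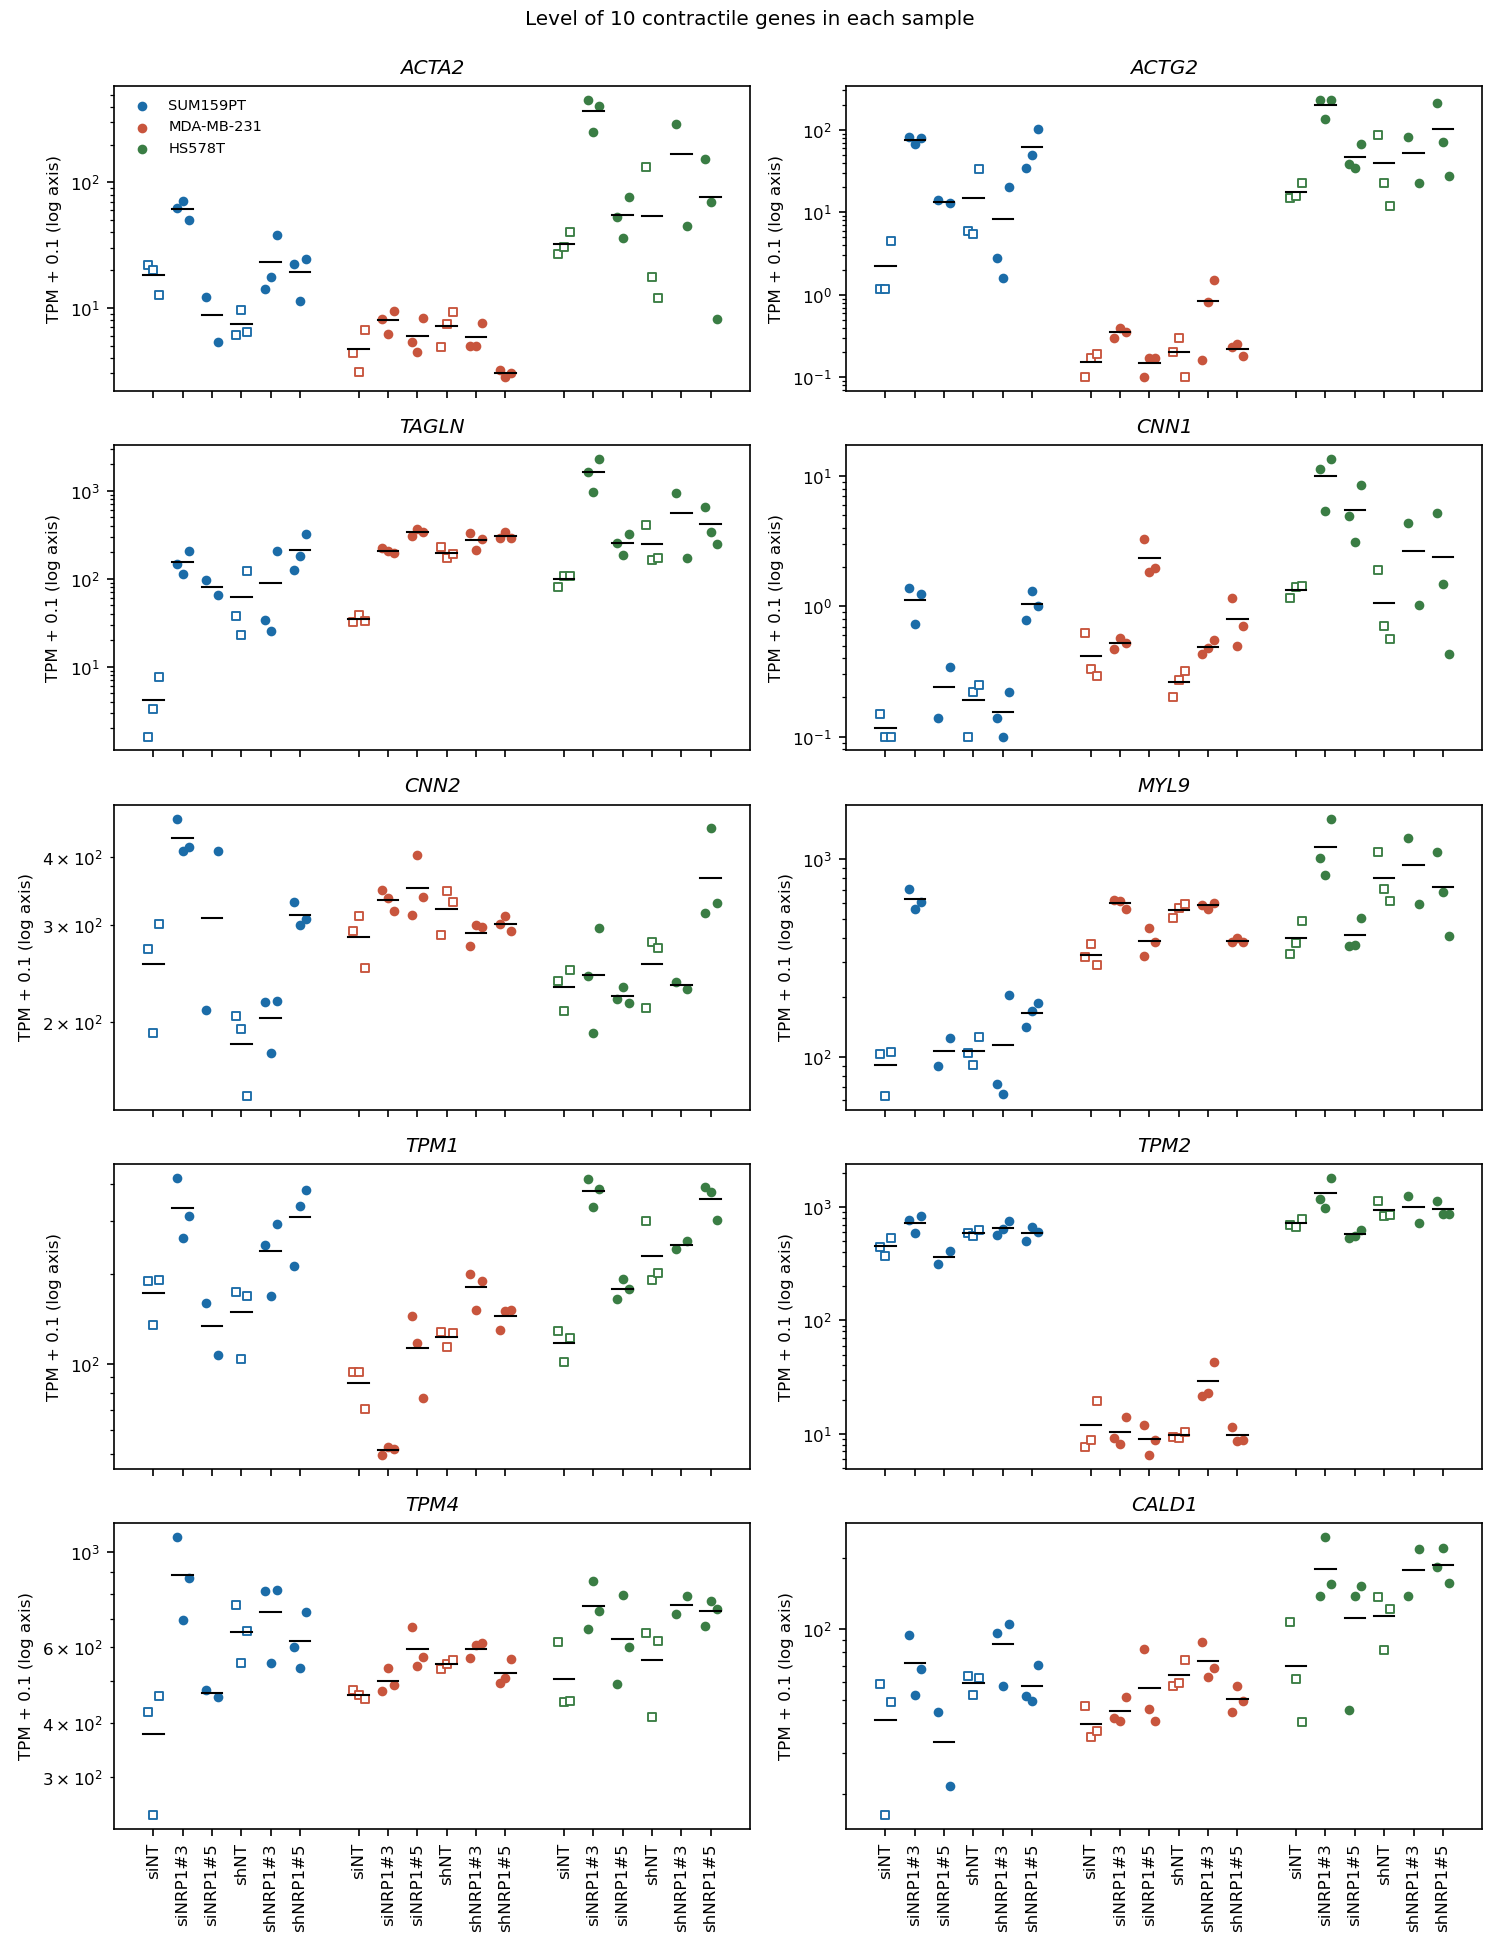
Level of each of the 10 contractile genes in every sample (TPM plus 0.1 on a log axis), by cell line and group, with a line at the group mean, open squares for NT controls and filled circles for NRP1-targeting groups. ACTG2 and TPM2 are low in MDA-MB-231, and siNRP1#3 lifts ACTA2, ACTG2, TAGLN and MYL9 in SUM159PT above every siNT sample.

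The lines also differed in which transcripts of TPM1, TPM4 and CALD1 they made. These genes have several promoters, and for the tropomyosins an upstream start gives long forms and an internal start short forms. Transcripts were grouped by annotated start (152 of the 167 transcripts of the members were matched, starts within 1000 bases joined), a grouping chosen after the values were seen and given as a description. The upstream start of TPM1 (18 transcripts) held 55.0 to 76.1% of the TPM1 TPM in the SUM159PT samples (median 68.2%) and 64.6 to 84.9% in HS578T (median 76.4%), but only 0.49 to 1.67% in MDA-MB-231 (median 0.90%). In MDA-MB-231 the internal start (13 transcripts) held 82.8 to 89.0%, against 8.63 to 34.3% in SUM159PT and 4.02 to 20.4% in HS578T. No sample of MDA-MB-231 overlapped a sample of another line at either start. Without the siNRP1#5 libraries, which held MDA-MB-231 RNA, the upstream share in HS578T was 70.6 to 84.9% and the range of the internal share was unaltered.

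TPM4 leaned the same way with less contrast. Its upstream start, the one with the CArG box, held 26.7 to 58.2% in SUM159PT, 29.6 to 65.0% in HS578T and 7.24 to 12.3% in MDA-MB-231. CALD1 set HS578T apart instead. An internal start of CALD1 held 14.2 to 35% in MDA-MB-231 and 16.4 to 48.3% in SUM159PT, but 0 to 6.60% in HS578T (median 0.17%), where the highest sample outside siNRP1#5 was at 1.01%.

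**Figure D2:**
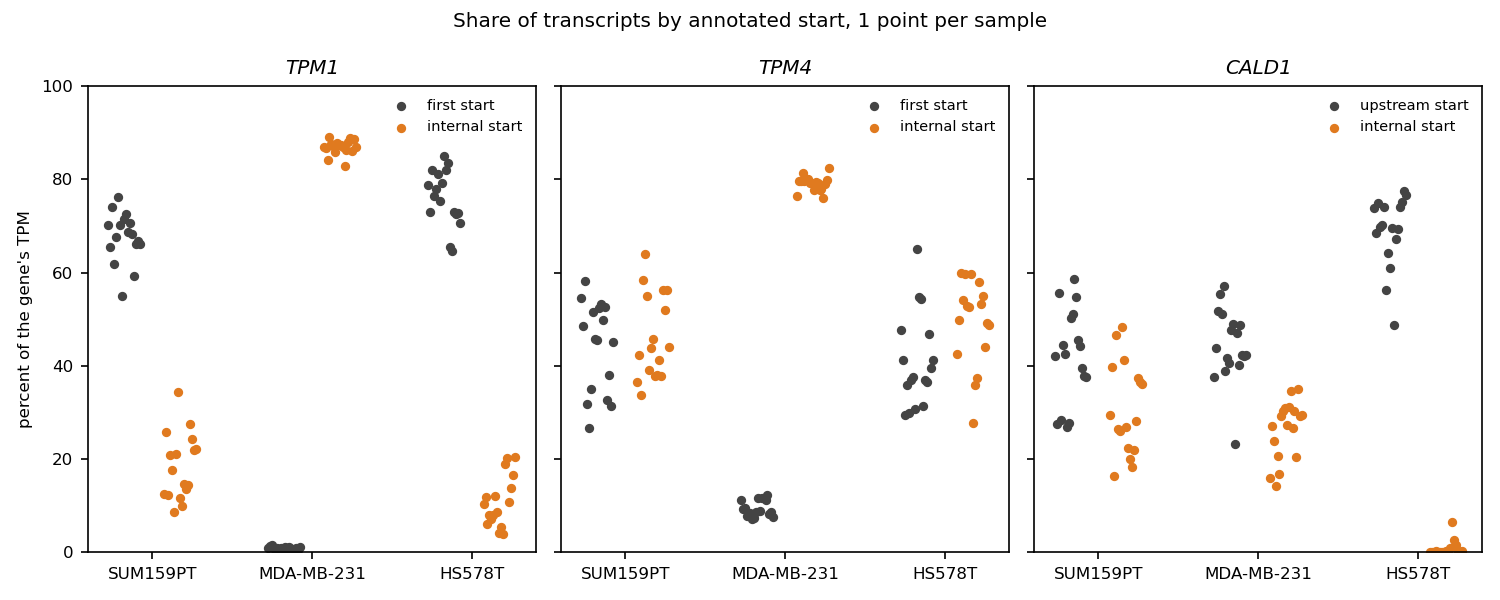
Percent of a gene's TPM from transcripts of an upstream and an internal annotated start for TPM1, TPM4 and CALD1, with 1 point per sample of each line. MDA-MB-231 took 82.8 to 89.0% of TPM1 from the internal start, while the other lines took most of it from the upstream start.

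Transcript shares were tested for the leading transcript of each of 4 genes in the NT controls, with 12 two-sided exact permutation tests of 6 against 6 samples adjusted together. TPM1-206 held 48.9% ± 8.54 (SD, n = 6) of TPM1 in SUM159PT, 48.3% ± 10.8 in HS578T and 0% ± 0 in MDA-MB-231. Both differences from MDA-MB-231 had an adjusted p of 0.00371, from a raw p of 0.00216 that is the smallest this exact permutation design can give, and HS578T and SUM159PT differed by −0.64 points (exact permutation adjusted p 0.896). TPM4-218 held 68.0% ± 4.32 in MDA-MB-231 and 37.2% ± 3.03 in SUM159PT (a difference of −30.8 points, exact permutation adjusted p 0.00371). The leading transcript of CALD1 held 58.7% ± 12.3 in HS578T and 33.6% ± 2.38 in MDA-MB-231 (25.1 points, exact permutation adjusted p 0.00371). Under knock-down, 0 of 16 tests of the same transcripts, permuted within lines, passed after adjustment. The smallest p was for TPM1-206 in siNRP1#3 against siNT, at −8.76 points (exact permutation p 0.005, adjusted p 0.08, 9 against 9 samples), and 4 of the 16 had an unadjusted p under 0.05. TPM1-206 was at 0% in the MDA-MB-231 controls, and where that line does not move, 0.005 is the smallest p this test can give. Over 16 tests such a p could not pass alone, so the test cannot show that the TPM1-206 share was unchanged.

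ACTA2 also has 2 starts, and transcripts that were not matched to an annotated start are in neither share. In HS578T the downstream start of ACTA2, the one printed above, held 54.0 to 85.5% of the ACTA2 TPM (median 81.2%), against 3.13 to 52.7% in MDA-MB-231 (median 13.9%). The upstream start held a median of 3.81% in HS578T, 31.2% in SUM159PT and 56.3% in MDA-MB-231. In SUM159PT the share moved between samples, from 8.04 to 80.3%. There the downstream start stood at 3.98 ± 2.64 TPM (SD, n = 3) in siNT and 40.0 ± 4.36 TPM (n = 3) in siNRP1#3, while the upstream start stood at 10.3 ± 3.57 and 13.2 ± 5.80 TPM. In HS578T the downstream start stood at 21.4 ± 5.39 TPM in siNT and 312 ± 87.6 TPM in siNRP1#3. At this level of detail the shares are estimates and no test was run on them.

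In SUM159PT, siNRP1#3 raised 7 of the 10 members and lowered none, where 8.66% of 20067 genes were called (3.16% higher). Both smooth muscle actins, the 3 calponin family genes, MYL9 and TPM4 were called higher. The median change of the members was 1.32 on the log2 scale, beside −0.01 for all genes tested.

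ACTA2, the vascular smooth muscle actin, stood at 21.9, 20.0 and 12.5 TPM in siNT and at 61.8, 71.2 and 49.8 TPM in siNRP1#3. Every siNRP1#3 sample was above every siNT sample, and the log2 change was 1.50 ± 0.43 (adjusted p 0.0382), a call that was lost on leaving out any 1 of the 6 libraries. ACTG2, the enteric smooth muscle actin, stood at 1.08, 1.06 and 4.34 TPM in siNT and at 81.2, 66.5 and 80.3 TPM in siNRP1#3. The siNRP1#3 samples lay far above the siNT samples, with a log2 change of 5.35 ± 0.96 (adjusted p 0.00355).

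TAGLN, which encodes transgelin, stood at 1.50, 3.21 and 7.47 TPM in siNT and at 145, 112 and 208 TPM in siNRP1#3. The groups lay far apart, with a log2 change of 4.90 ± 0.87 (adjusted p 0.00326). CNN1, the smooth muscle calponin, had 1 count over the 3 siNT libraries and 122 counts over the 3 siNRP1#3 libraries. The ratio of rates was 127 (95% exact interval 22.3 to 5050, counting error only), and the adjusted p of the fit was 0.00237. CNN2 stood at 272, 191 and 302 TPM in siNT and at 469, 409 and 417 TPM in siNRP1#3, a log2 change of 0.64 ± 0.19 (adjusted p 0.0447). The CNN2 groups did not overlap, but this call too was lost without any 1 of the 6 libraries.

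MYL9 stood at 103, 63.0 and 106 TPM in siNT and at 710, 562 and 606 TPM in siNRP1#3, a log2 change of 2.74 ± 0.34 (adjusted p 0.000246). TPM4 stood at 424, 245 and 463 TPM in siNT and at 1081, 696 and 871 TPM in siNRP1#3, a log2 change of 1.14 ± 0.23 (adjusted p 0.00554). Neither gene overlapped between the groups, and both calls held without any 1 library. TPM2 reached 0.59 ± 0.18 (adjusted p 0.0509, and 0.0299 with a replicate block), TPM1 0.71 ± 0.31 (adjusted p 0.171) and CALD1 0.71 ± 0.36 (adjusted p 0.24).

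With siNRP1#5 in SUM159PT, 2 members were called, ACTG2 and TAGLN, both higher, where 17.9% of genes were called (9% higher). ACTG2 stood at 13.8 and 12.7 TPM in the 2 siNRP1#5 samples, above all siNT samples, with a log2 change of 3.23 ± 0.93 (adjusted p 0.0269, lost without siNRP1#5 replicate 2 or 3 or siNT replicate 1 or 2). TAGLN stood at 96.6 and 64.8 TPM, with a log2 change of 4.31 ± 0.88 (adjusted p 0.00503, kept in 5 of 5). ACTA2 stood at 12.1 and 5.22 TPM, below every siNT sample, but its log2 change of −0.69 ± 0.48 did not pass (adjusted p 0.336). MYL9 (89.7 and 124 TPM) overlapped the siNT range.

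With the hairpins in SUM159PT less was called. For shNRP1#3 against shNT, 0 members were called by edgeR, where 1.40% of genes were called. At an unadjusted p under 0.05 there was 1 (ACTA2), and DESeq2 also called 1. ACTA2 stood at 5.94, 9.58 and 6.30 TPM in shNT and at 14, 17.7 and 37.8 TPM in shNRP1#3, groups that did not overlap, with a log2 change of 1.44 ± 0.43 (adjusted p 0.127). For shNRP1#5, 2 members were called higher, CNN1 and CNN2, where 5.94% of genes were called (3.24% higher). CNN1 had 11 counts in shNT and 113 in shNRP1#5 (ratio of rates 12.5, 95% exact interval 6.71 to 25.7, adjusted p of the fit 0.0172). CNN2 stood at 205, 194 and 146 TPM in shNT and at 331, 301 and 307 TPM in shNRP1#5, a log2 change of 0.70 ± 0.19 (adjusted p 0.0383). The CNN2 call was lost in all 6 refits without a library, and leaving out shNRP1#5 replicate 2 or shNT replicate 1 or 2 also lost CNN1.

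TAGLN in the SUM159PT hairpin groups was spread widely. It stood at 37.3, 23.0 and 122 TPM in shNT, at 34.1, 25.2 and 206 TPM in shNRP1#3 and at 125, 180 and 321 TPM in shNRP1#5. All 3 shNRP1#5 samples were above all shNT samples, the change was 1.67 ± 0.75 and it did not pass (adjusted p 0.243). Replicate 3 was the highest in all 3 hairpin groups.

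In MDA-MB-231, TAGLN and MYL9 were called higher with both siRNAs. CNN1, CNN2, TPM4 and CALD1 were called higher with siNRP1#5 alone, and TPM1 was called in opposite directions with the 2 siRNAs. TAGLN stood at 32.4, 38.8 and 32.8 TPM in siNT, at 222, 207 and 194 TPM in siNRP1#3 and at 305, 365 and 340 TPM in siNRP1#5. The 3 groups did not overlap. The log2 change was 2.56 ± 0.19 for siNRP1#3 (adjusted p 2.9e-08) and 3.48 ± 0.19 for siNRP1#5 (adjusted p 4.78e-10), and both calls held without any 1 library.

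For siNRP1#3 in MDA-MB-231, 3 members were called, where 25.7% of 18800 genes were called (11.4% higher and 14.3% lower). MYL9 stood at 319, 370 and 289 TPM in siNT and at 621, 612 and 561 TPM in siNRP1#3, a rise of 0.91 ± 0.15 on the log2 scale (adjusted p 0.00017). TPM1 went the other way. It stood at 93.6, 93.6 and 70.4 TPM in siNT and at 49.3, 52.6 and 51.9 TPM in siNRP1#3, and fell by 0.74 on the log2 scale (SE 0.15, adjusted p 0.00145). That was the only siRNA comparison in which a member was called lower. ACTA2 was at 0.82 and fell short of a call (adjusted p 0.0528 by edgeR). Its TPM ran from 2.96 to 6.60 in siNT and from 6.07 to 9.39 in siNRP1#3, so the groups overlapped. DESeq2 called it higher (adjusted p 0.0394), as did edgeR with a replicate block (adjusted p 0.0062).

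For siNRP1#5 in MDA-MB-231, 7 members were called, all higher, where 29.4% of genes were called (14.4% higher). CNN1 had 18, 6 and 9 counts in siNT and 144, 78 and 80 in siNRP1#5, a log2 change of 3.32 ± 0.44 (adjusted p 1.37e-05). TPM4, at 477, 465 and 455 TPM in siNT and 670, 543 and 569 TPM in siNRP1#5, rose by 0.58 ± 0.09 (adjusted p 6.64e-05). The other calls were of TPM1 (0.59 ± 0.15), CALD1 (0.59 ± 0.17), CNN2 (0.54 ± 0.14) and MYL9 (0.47 ± 0.14). Of these, TPM1 and CNN2 held without any 1 library, CALD1 was lost without siNRP1#5 replicate 1 or siNT replicate 2, and MYL9 without siNRP1#5 replicate 2 or siNT replicate 1 or 3. With only the siNT and siNRP1#5 libraries fitted, all 4 of these calls were lost (adjusted p 0.0847 for TPM1, 0.0985 for CNN2, 0.105 for CALD1 and 0.169 for MYL9). CNN2 (313, 403 and 338 TPM) lay just above the highest siNT sample at 311 TPM, and CALD1 (82.3, 46.0 and 40.6 TPM) overlapped siNT, whose highest sample was at 47.2 TPM.

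For shNRP1#5 in MDA-MB-231, 4 members were called, TAGLN and CNN1 higher and ACTA2 and MYL9 lower, where 20.7% of genes were called (8.79% higher and 11.9% lower). TAGLN stood at 229, 170 and 191 TPM in shNT and at 287, 336 and 288 TPM in shNRP1#5, a log2 change of 0.68 ± 0.17 (adjusted p 0.0107, lost without shNT replicate 2 or 3). CNN1 had 5, 9 and 10 counts in shNT and 67, 18 and 29 in shNRP1#5 (ratio of rates 4.69, 95% exact interval 3.00 to 7.63, adjusted p of the fit 0.00347). ACTA2 stood at 4.76, 7.37 and 9.11 TPM in shNT and at 3.12, 2.7 and 2.91 TPM in shNRP1#5, and fell by 1.21 on the log2 scale (SE 0.30, adjusted p 0.00933, lost without shNT replicate 3). MYL9 stood at 504, 568 and 595 TPM in shNT and at 381, 397 and 381 TPM in shNRP1#5. The groups did not overlap. MYL9 fell by 0.43 on the log2 scale (SE 0.14, adjusted p 0.0392), and kept its call only in the refit without shNT replicate 1, of 6 refits that left out a library.

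For shNRP1#3 in MDA-MB-231, 2 members were called higher, where 3.65% of genes were called (1.46% higher), and neither call was kept with RNA of another line subtracted. TPM2 stood at 9.30, 9.07 and 10.3 TPM in shNT and at 21.3, 22.9 and 42.7 TPM in shNRP1#3, a log2 change of 1.62 ± 0.32 (adjusted p 0.00741). ACTG2 had 5, 7 and 0 counts in shNT and 2, 40 and 51 in shNRP1#3 (ratio of rates 9.99, 95% exact interval 5.46 to 20.0, adjusted p of the fit 0.0422). Replicate 1, with TPM2 at 21.3 TPM and 2 counts of ACTG2, held 0.0447% SUM159PT RNA and 0% HS578T RNA. The libraries with 40 and 51 counts were replicates 2 and 3, which held 0.577 and 2.33% SUM159PT RNA, a line with high TPM2 and more ACTG2. With that RNA subtracted, TPM2 changed by 0.44 ± 0.86 (adjusted p 0.854), ACTG2 no longer passed the filter on low counts, and 0 members were called. The ACTG2 call was also lost in 5 of 6 refits without a library, all but that without shNRP1#3 replicate 1. TPM1 was at 0.53 and fell short of a call (adjusted p 0.0576 by edgeR). With the other-line RNA subtracted it was at 0.52 ± 0.15 (adjusted p 0.0649). It was called higher by DESeq2 (adjusted p 0.018) and by edgeR with only the 2 groups fitted (adjusted p 0.00373).

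In HS578T, siNRP1#3 raised TAGLN, ACTG2 and TPM1, with wide spread between samples. These 3 members were called, all higher, where 4.65% of 19661 genes were called (2.31% higher). The median change of the members was 1.45 on the log2 scale, beside 0.03 for all genes. TAGLN stood at 79.9, 107 and 108 TPM in siNT and at 1625, 964 and 2269 TPM in siNRP1#3, a log2 change of 3.85 ± 0.69 (adjusted p 0.00496). TPM1 stood at 128, 101 and 122 TPM in siNT and at 415, 335 and 385 TPM in siNRP1#3, a log2 change of 1.48 ± 0.23 (adjusted p 0.00175). Neither gene overlapped between groups, and both calls held without any 1 library.

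ACTG2 stood at 14.7, 15.8 and 22.6 TPM in siNT and at 229, 134 and 230 TPM in siNRP1#3, a log2 change of 3.33 ± 0.87 (adjusted p 0.041, kept only without siNRP1#3 replicate 2 of 6 refits that left out a library). ACTA2 stood at 27.0, 30.3 and 39.9 TPM in siNT and at 454, 254 and 406 TPM in siNRP1#3. Its groups were as far apart as those of ACTG2, but with the spread shared over the 6 groups of the line the change of 3.41 ± 1.06 had an adjusted p of 0.0813. CNN1 (2.96 ± 0.92, adjusted p 0.0777) and MYL9 (1.43 ± 0.45, adjusted p 0.0786) stood likewise. When only the siNT and siNRP1#3 libraries were fitted, the adjusted p was 0.00145 for ACTA2, 0.00576 for CNN1 and 0.0267 for MYL9, and 6 members were called. With MDA-MB-231 RNA subtracted, TAGLN, ACTG2 and TPM1 were again called, with log2 changes of 3.93, 3.4 and 1.54.

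With siNRP1#5 in HS578T, 0 members were called by edgeR, where 18.7% of genes were called. At an unadjusted p under 0.05 there were 3 (TAGLN, CNN1 and TPM1), and DESeq2 called 0. TAGLN stood at 251, 187 and 318 TPM in siNRP1#5, above all siNT samples, with a log2 change of 1.41 ± 0.63 (adjusted p 0.129). TPM1 stood at 164, 192 and 178 TPM, also above all siNT samples, with 0.58 ± 0.22 (adjusted p 0.0794). These libraries held the MDA-MB-231 RNA described above. With it subtracted, TPM1 changed by 0.88 ± 0.22 (adjusted p 0.015) and TPM4 by 0.62 ± 0.19 (adjusted p 0.0433), and with only the 2 groups fitted ACTG2, TAGLN, CNN1 and TPM1 were called.

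With the hairpins in HS578T, 0 members were called for shNRP1#3, where 0.0356% of genes were called, and 0 for shNRP1#5, where 0.946% were called. By edgeR at an unadjusted p under 0.05 there were 0 in each, and DESeq2 called 0 in each. Here the replicate number went with the level. Replicate 1 had the highest ACTA2, ACTG2, TAGLN, CNN1 and MYL9 in shNT, shNRP1#3 and shNRP1#5. ACTA2 stood at 133, 17.5 and 12.0 TPM in shNT, at 291 and 44.8 TPM in shNRP1#3 and at 152, 69.6 and 8.10 TPM in shNRP1#5. TAGLN stood at 410, 163 and 171 TPM, at 928 and 170 TPM and at 644, 342 and 248 TPM in the same groups. The groups overlapped for both genes, and with a replicate block there were again 0 members called in either comparison.

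**Figure D3:**
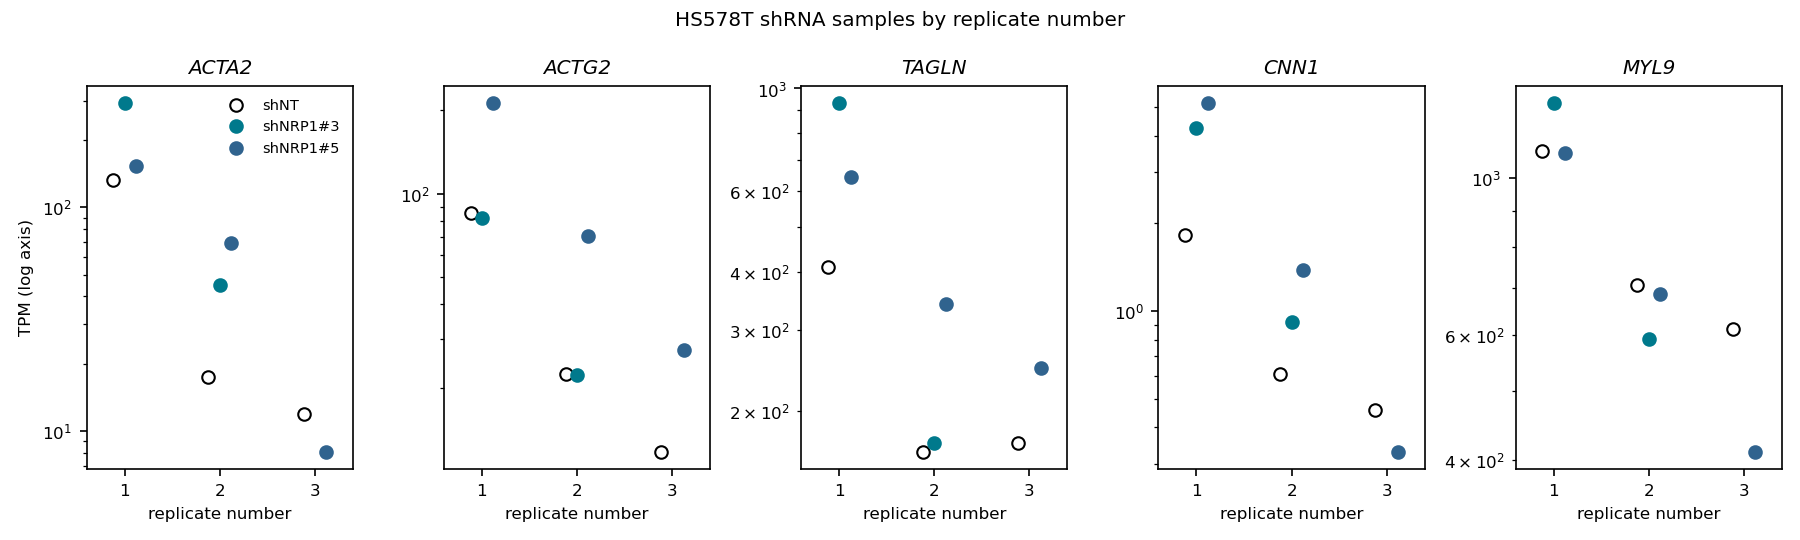
TPM of ACTA2, ACTG2, TAGLN, CNN1 and MYL9 in the HS578T shRNA samples (log axis) against the replicate number, with 1 point per sample and colours for shNT, shNRP1#3 and shNRP1#5. Replicate 1 is the highest of its group for each of these 5 genes.

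**Figure D4:**
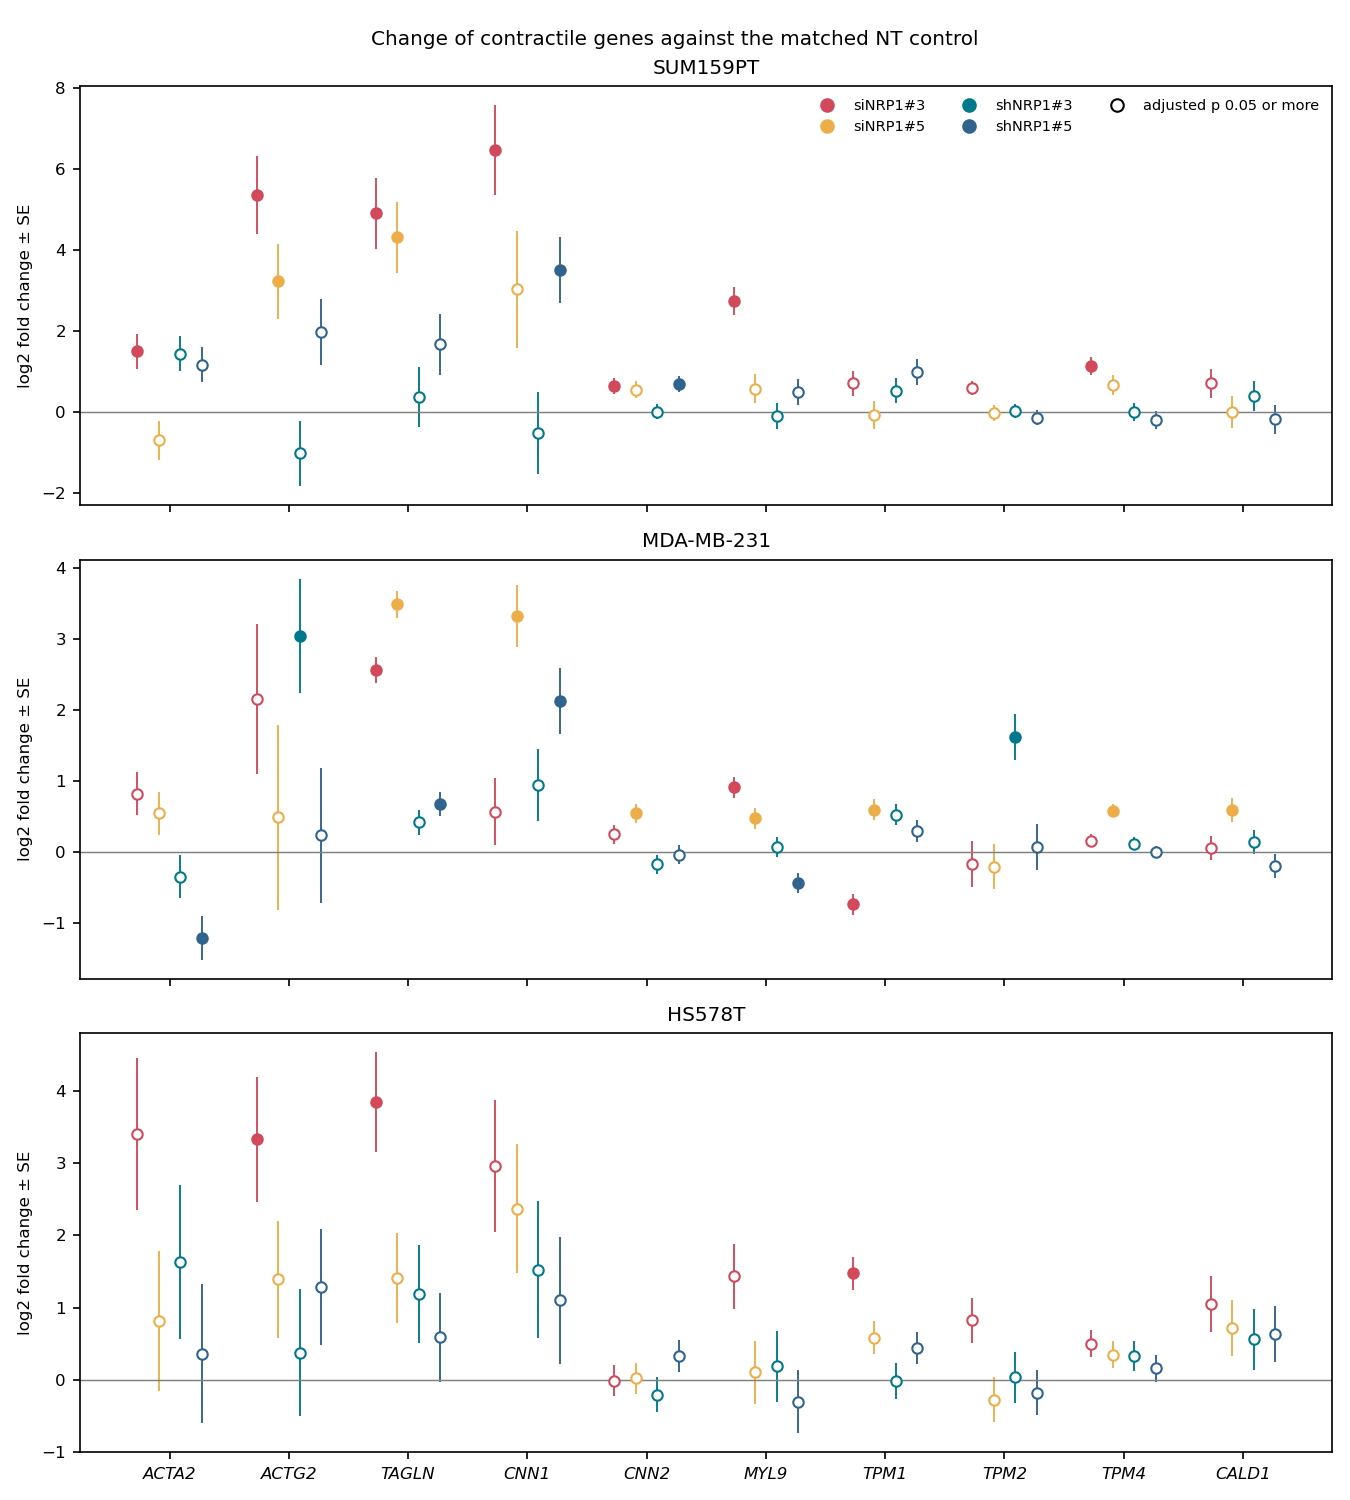
Log2 fold change with its standard error of the 10 contractile genes in each NRP1-targeting group against its NT control, by cell line, with filled points where the adjusted p was under 0.05. TAGLN lies above 0 in 12 of 12 comparisons, and the points of CNN1 in SUM159PT and ACTG2 in MDA-MB-231 are fitted on counts near 0 and are no measure of size.

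Counted by gene over the 12 comparisons, TAGLN was called higher 6 times, ACTG2 and CNN1 4 times each, CNN2 and MYL9 3 times each, TPM1 and TPM4 2 times each, and ACTA2, TPM2 and CALD1 1 time each. The lower calls were 1 each of ACTA2, MYL9 and TPM1, all in MDA-MB-231. Comparisons within a line and delivery share their NT samples, so these counts are not independent.

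The NT controls themselves differed between siRNA and shRNA delivery, which also differ in time and selection. In SUM159PT, shNT had higher TAGLN (3.49 ± 0.82, adjusted p 0.0146) and ACTG2 (2.95 ± 0.88, adjusted p 0.0358) than siNT, and lower ACTA2 (−1.53 ± 0.43, adjusted p 0.0276) and CNN2 (−0.68 ± 0.19, adjusted p 0.0275). That is 4 members, where 14.4% of genes were called (5.96% higher and 8.45% lower). Each of these calls was lost in some refits without a library, TAGLN without shNT replicate 3 or siNT replicate 1, ACTG2 also without siNT replicate 2, ACTA2 without shNT replicate 1 or 3 or siNT replicate 1 or 2, and CNN2 without shNT replicate 2 or 3 or siNT replicate 1 or 3. In MDA-MB-231, 2 members were called, where 20.6% of genes were (10.7% higher). They were TAGLN (2.28 ± 0.18, adjusted p 2.69e-07) and MYL9 (0.59 ± 0.14, adjusted p 0.00752), both higher in shNT. In HS578T, 1 member was called, where 17.9% of genes were (9.14% higher), TPM1 at 1.09 ± 0.23 (adjusted p 0.00445). In MDA-MB-231 the TAGLN level of shNT (170 to 229 TPM) thus overlapped that of siNRP1#3 (194 to 222 TPM).

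Sequences #3 and #5 were then compared directly. In SUM159PT, siNRP1#5 gave lower levels than siNRP1#3 of 4 members, ACTA2 (−2.19 ± 0.51, adjusted p 0.00503), CNN1, MYL9 (−2.16 ± 0.39, adjusted p 0.000969) and TPM2 (−0.62 ± 0.20, adjusted p 0.031), where 29.7% of genes were called (13.7% lower). TAGLN did not differ past the test (−0.59 ± 0.84, adjusted p 0.625). In MDA-MB-231, siNRP1#5 gave higher levels of 5 members and a lower level of MYL9 (−0.44 ± 0.15, adjusted p 0.0221), where 39% of genes were called (20% higher and 18.9% lower). The member with the smallest p was TPM1 at 1.33 ± 0.15 (adjusted p 1.56e-06), beside TAGLN at 0.92 ± 0.18, CNN1 at 2.75 ± 0.42, TPM4 at 0.42 ± 0.09 and CALD1 at 0.54 ± 0.17. In HS578T, siNRP1#5 gave lower levels of 4 members, TAGLN (−2.44 ± 0.65, adjusted p 0.018), MYL9, TPM1 and TPM2, where 18.1% of genes were called (8.92% lower). With MDA-MB-231 RNA subtracted, TAGLN alone was called there (−2.21 ± 0.63, adjusted p 0.0277). Leaving out a replicate number lost CNN1 and TPM2 in SUM159PT and MYL9 and TPM2 in HS578T whichever number it was, MYL9 (1 or 3) and CALD1 (1 or 2) in MDA-MB-231, and TAGLN (2 or 3) and TPM1 (1 or 2) in HS578T. NRP1 was itself lower with siNRP1#5 than with siNRP1#3 in all 3 lines, with log2 changes between −4.18 and −1.46. Those are gene-level values that include the soluble form, at which siNRP1#3 is not directed, so they do not compare knock-down of the transmembrane form.

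For the hairpins, shNRP1#5 gave higher levels than shNRP1#3 of 3 members in SUM159PT, ACTG2 (3.00 ± 0.86, adjusted p 0.0403), CNN1 and CNN2 (0.69 ± 0.19, adjusted p 0.0316), where 8.71% of genes were called (4.91% higher). In MDA-MB-231, 3 members were lower, where 14.2% of genes were called (8.24% lower). They were ACTG2, TPM2 and MYL9 (−0.51 ± 0.14, adjusted p 0.0259), and 1 was called with the other-line RNA subtracted. Leaving out a replicate number lost CNN2 in SUM159PT and MYL9 in MDA-MB-231 whichever number it was, ACTG2 and CNN1 in SUM159PT (1 or 2), and ACTG2 (3) and TPM2 (2) in MDA-MB-231. In HS578T, 0 members were called by edgeR, where 0.544% of genes were, with 1 at an unadjusted p under 0.05 (CNN2). DESeq2 was not run on comparisons of sequences.

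The change by the hairpin of sequence #5 was also set against the change by the siRNA of sequence #5. In MDA-MB-231 the hairpin change was smaller or more negative for 6 members, where 23.7% of genes were called (12.2% lower), the clearest being TAGLN at −2.81 ± 0.25 (adjusted p 5.33e-07) and ACTA2 at −1.75 ± 0.43 (adjusted p 0.00633). NRP1 itself fell less with this hairpin than with the siRNA, by 3.83 on the log2 scale. Without replicate 2 the calls of ACTA2, TPM4, CNN2, MYL9 and CALD1 were lost, and without replicate 3 those of CNN2, MYL9 and CALD1. In SUM159PT, 0 members were called by edgeR, where 2.51% of genes were, with 4 at an unadjusted p under 0.05. In HS578T, 0 were called, where 0.854% of genes were, with 0 at an unadjusted p under 0.05. DESeq2 was not run on these contrasts either.

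Whether a change differed between the 3 lines was tested in a fit over all 52 samples. For siNRP1#3, 2 members differed, TPM1 (adjusted p 0.000267) and TPM4 (adjusted p 0.0279), where 3.42% of genes did. The call of TPM1 held and that of TPM4 was lost without any 1 replicate number, and that of TPM4 was also lost without a low-count filter (adjusted p 0.0787). TPM1 rose by 1.48 ± 0.23 in HS578T, fell by 0.74 in MDA-MB-231, and was at 0.71 ± 0.31 in SUM159PT, where it was not called. By start, the internal start of TPM1 stood at 74.9 ± 11.9 TPM (SD, n = 3) in siNT and 43.9 ± 1.53 TPM in siNRP1#3 of MDA-MB-231, and the upstream start at 84.2 ± 10.0 and 316 ± 39.2 TPM in HS578T. In HS578T the internal start was at 19.8 ± 4.44 TPM in siNT and 17.1 ± 1.54 TPM in siNRP1#3, so the 2 starts of the gene did not move together there. TPM4 changed by 1.14 ± 0.23 in SUM159PT, 0.50 ± 0.19 in HS578T and 0.16 ± 0.09 in MDA-MB-231. TAGLN, with changes of 4.90, 3.85 and 2.56, had an adjusted p of 0.291, so a difference between lines was not shown for it. For siNRP1#5, shNRP1#3 and shNRP1#5, 0 members differed by edgeR, where 18.2, 0.747 and 3.81% of genes did, with 1, 2 and 1 at an unadjusted p under 0.05. DESeq2 was not run on this test.

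Other genes of the pathway were taken from lists made with the members. In the list of SRF and its cofactors, which also held ELK1, ELK3 and ELK4, 2 tests of 76 called a gene higher and 6 lower. That is 10.5%, near the 11.3% of all genes. Most of the lower calls were of the ELK genes, with ELK1 lower 2 times, ELK3 1 time and ELK4 2 times. SRF itself rose once, in MDA-MB-231 siNRP1#3 (0.53 ± 0.14, adjusted p 0.00698), MRTFA fell once, in MDA-MB-231 shNRP1#5 (−0.37 ± 0.11, adjusted p 0.0263), and MRTFB was called in none of the 12. MYOCD, the cofactor of muscle, was detected in HS578T at 0.10 to 2.88 TPM and reached at most 0.06 TPM in MDA-MB-231 and 0.01 TPM in SUM159PT. In HS578T it stood at 0.14, 0.16 and 0.33 TPM in siNT and at 1.51, 0.73 and 2.58 TPM in siNRP1#3, a log2 change of 2.35 ± 0.58 (adjusted p 0.0291). Those are low levels whose groups did not overlap.

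MYLK, the kinase that phosphorylates the light chain encoded by MYL9, was called lower 4 times and higher 1 time. The other actin and myosin genes gave 19 higher and 6 lower calls in 124 tests (20.2%), and the adhesion and crosslinking genes 27 higher and 8 lower in 188 (18.6%). Among the latter PDLIM5, a LIM protein of the actin cytoskeleton, was called higher 5 times and lower 0 times. ACTB, the main cytoplasmic actin, was called higher 2 times and lower 1 time. ACTA1 and MYH11 passed the filter on low counts in 0 of the lines.

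Fibroblasts also carry the contractile genes, so the 3 fibroblast markers measured, DCN, LUM and PDGFRA, are given over the 12 comparisons. By edgeR, LUM was called higher 2 times and lower 3 times, PDGFRA lower 2 times and DCN 0 times. In HS578T siNRP1#3, PDGFRA fell by 1.99 on the log2 scale (adjusted p 0.000402), LUM was at −1.57 (adjusted p 0.244) and DCN at −0.74 (adjusted p 0.52). The summed TPM of the 3 markers there was 159 to 384 in siNT and 94.2 to 175 in siNRP1#3. In SUM159PT siNRP1#3 the markers differed in sign, PDGFRA falling by 1.53 (adjusted p 0.041), with DCN at 1.53 (adjusted p 0.234) and LUM at 1.71 (adjusted p 0.255), and the summed TPM was 22.3 to 29.7 in siNT and 14.5 to 23.6 in siNRP1#3. LUM rose in SUM159PT shNRP1#5 from at most 1 count a library in shNT to between 5 and 130 counts (adjusted p 0.00374). It also rose in MDA-MB-231 shNRP1#3, by 1.76 ± 0.34 (adjusted p 0.00541), from 0.41 to 0.66 TPM in shNT to 1.10 to 2.30 TPM. Replicate 3 of that group held 1.90% HS578T RNA, a line with LUM at 9.71 to 190 TPM in its NT controls. The LUM change is given without subtraction of that RNA. The lower calls of LUM were in both siRNA groups and in shNRP1#5 of MDA-MB-231, where the summed TPM was at most 2.79 in siNT, 0.98 in the siRNA groups and 0.34 in shNRP1#5. The part of these markers in the changes of the members was not tested.

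**Figure D5:**
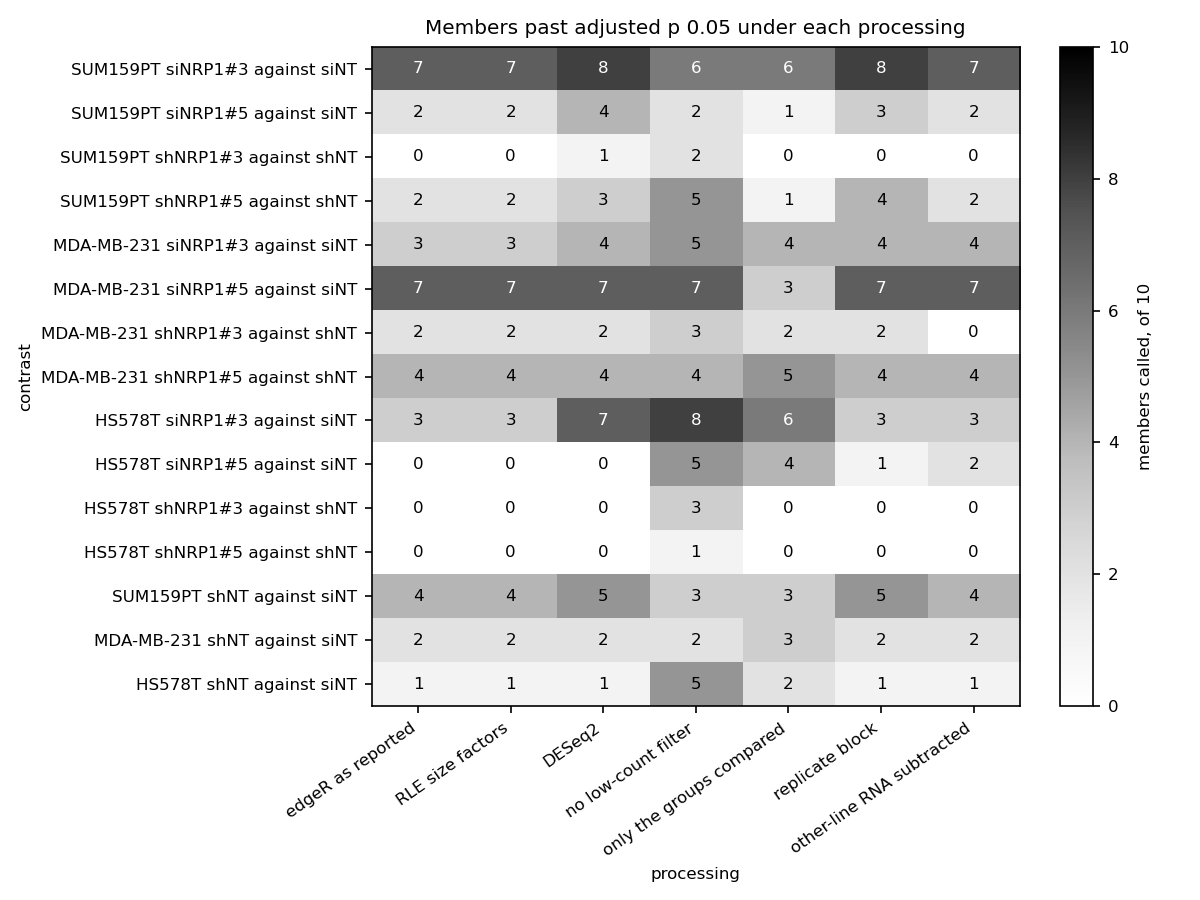
Number of the 10 members called in the 12 comparisons with an NT control and the 3 between NT controls (rows) under the reported fit and 6 other settings (columns), with darker cells for more calls. The count for HS578T siNRP1#3 runs from 3 in the reported fit to 8 without a filter on low counts.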

How the data were processed

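RNA of 52 cultures in 18 groups was sequenced by the authors as stranded, paired-end libraries, trimmed with Trim Galore 0.6.5, aligned with STAR 2.7.2b and quantified with RSEM 1.3.3 in reverse-strand mode on GRCh38, as given in the study's methods and the submitters' processing notes. The authors deposited expected counts and TPM for each of 78894 genes and each transcript, and for each transcript also the percent of its gene's TPM. RSEM divides reads that match several genes, which bears on the actins and tropomyosins.

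Members and gene lists were chosen with earlier results of these data known. Genes were named by a fixed rule, the 10 members in all comparisons and listed pathway genes by the number of comparisons in which they were called. Expected counts were rounded to whole numbers and fitted with edgeR 4.0.16 (R 4.3.3, limma 3.58.1), quasi-likelihood with the robust setting, after filterByExpr and TMM scaling, with group means in 1 fit per line (20067, 18800 and 19661 genes tested in SUM159PT, MDA-MB-231 and HS578T) and in 1 fit of all 52 samples (23416 genes) for contrasts between lines. Adjusted p-values are Benjamini-Hochberg over all genes tested, called under 0.05, and all tests are two-sided except the F test of differences between lines. Transcript shares were compared by exact permutation tests with numpy 2.4.6, and the exact intervals of ratios of rates were computed with scipy 1.17.1. RNA of another line was estimated from genes at 20 CPM or more in that line and at most 0.5 CPM in the line itself. Replicates of a group differed by more than sampling noise (lowest chi-square per degree of freedom 11). Replicate numbers paired the samples, with a correlation of deviations over 0.1 in every pair, in 4 of the comparisons with 3 pairs. They were SUM159PT siNRP1#3 (0.173 to 0.370), SUM159PT shNRP1#3 (0.123 to 0.430), MDA-MB-231 siNRP1#5 (0.313 to 0.397) and HS578T shNRP1#5 (0.234 to 0.662). With only 2 pairs each, SUM159PT siNRP1#5 (0.132 to 0.393) and HS578T shNRP1#3 (0.240 to 0.531) also met this rule. In simulated counts with a log2 change of 1.5 in 200 of 20067 genes, for SUM159PT siNRP1#3, 46% were called and 2 of 94 calls were false. Alternatives were RLE size factors, no low-count filter, a replicate block, DESeq2 1.42.0, only the compared groups, subtraction of RNA of another line, and leaving out libraries. The result of 1 list of pathway genes and 1 promoter sequence are not reported here.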

Additional observations from a re-analysis of the deposited data

Results flagged for a closer look

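For the siNRP1#3 siRNA, the change of 2 tropomyosin genes differed between the 3 lines in a test of the difference itself (edgeR's quasi-likelihood F test over 52 samples). TPM1 had an adjusted p of 0.000267, with log2 changes against siNT of 1.48 ± 0.23 in HS578T, 0.71 ± 0.31 in SUM159PT and −0.74 ± 0.15 in MDA-MB-231 (SE, n = 3 per group). TPM4 had an adjusted p of 0.0279, with log2 changes of 1.14 ± 0.23 in SUM159PT, 0.50 ± 0.19 in HS578T and 0.16 ± 0.09 in MDA-MB-231. The TPM4 difference was lost on leaving out any 1 replicate number and without a low-count filter (adjusted p 0.0787). NRP1 itself also differed between lines in its change under siNRP1#3 (adjusted p 0.0418), and its part in the result was not tested.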

How the results depend on the processing

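Of the 30 calls of members against NT controls, 30 were kept with RLE size factors, 30 with a replicate block, 29 with DESeq2, 28 without a low-count filter, 22 of 29 with only the compared groups fitted and 28 of 29 with RNA of another line subtracted. No call changed sign in any setting. Depth limits CNN1 in SUM159PT and ACTG2 in MDA-MB-231, which had few counts in the controls. The cause of the moves below was not tested.

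Without a low-count filter the members called went from 0 to 2 in SUM159PT shNRP1#3, 2 to 5 in SUM159PT shNRP1#5, 0 to 3 for delivery in SUM159PT, 3 to 5 in MDA-MB-231 siNRP1#3, 3 to 5 between the hairpins in MDA-MB-231, 3 to 8 in HS578T siNRP1#3, 0 to 5 in HS578T siNRP1#5, 0 to 3 in HS578T shNRP1#3, 0 to 1 in HS578T shNRP1#5, 1 to 5 between the HS578T controls and 0 to 1 between the HS578T hairpins, and for differences between lines from 2 to 6, 0 to 3, 0 to 3 and 0 to 2 for siNRP1#3, siNRP1#5, shNRP1#3 and shNRP1#5. With only the compared groups fitted they went from 2 to 1 in SUM159PT siNRP1#5 and shNRP1#5, 7 to 3 in MDA-MB-231 siNRP1#5, 3 to 6 in HS578T siNRP1#3, 0 to 4 in HS578T siNRP1#5 and 1 to 2 between the HS578T controls. DESeq2 gave 4 in SUM159PT siNRP1#5, 1 in SUM159PT shNRP1#3 and 7 in HS578T siNRP1#3. With RNA of another line subtracted, by either rule for its marker genes (the rule by mean was chosen after seeing the data), there were 0 in MDA-MB-231 shNRP1#3, 1 between the MDA-MB-231 hairpins and 2 in HS578T siNRP1#5, and between the HS578T siRNAs 1, or 2 by mean.

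With the replicate number as a block (paired samples in the 4 comparisons with 3 pairs named under processing), 8 members were called in SUM159PT siNRP1#3, 0 in SUM159PT shNRP1#3, 7 in MDA-MB-231 siNRP1#5 and 0 in HS578T shNRP1#5. In the comparisons with 2 pairs, the block added TPM4 in SUM159PT siNRP1#5 (adjusted p 0.0233 by edgeR) and no member in HS578T shNRP1#3. Where only the number was shared, the replicate block gave 4 in SUM159PT shNRP1#5 (with ACTG2, adjusted p 0.0293, and TAGLN, adjusted p 0.0494, added), 1 in HS578T siNRP1#5, and 1 each for differences between lines in siNRP1#5 (TAGLN, adjusted p 0.00566) and shNRP1#3 (TPM2, adjusted p 0.0139).

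Leaving out 1 library or number, members called ranged from 5 to 5 in SUM159PT siNRP1#3, 1 to 2 in siNRP1#5, 0 to 2 in shNRP1#5, 0 to 3 between controls, 2 to 4 between siRNAs, 0 to 4 between hairpins and 0 to 1 for delivery, from 3 to 4 in MDA-MB-231 siNRP1#3, 6 to 7 in siNRP1#5, 1 to 2 in shNRP1#3, 1 to 4 in shNRP1#5, 5 to 5 between siRNAs, 0 to 2 between hairpins and 1 to 7 for delivery, and from 2 to 3 in HS578T siNRP1#3 and 0 to 1 between siRNAs. Between lines they ranged from 6 to 7 for SUM159PT against MDA-MB-231 and 9 to 10 for HS578T against either, and for differences in the siNRP1#3 change from 1 to 1 and in siNRP1#5 from 0 to 1. The share of TPM1-206 in SUM159PT minus MDA-MB-231 ranged from 47.2 to 51.0 points. That of the leading TPM2 transcript in the same pair ranged from 9.56 to 11.6 points, and that of the leading CALD1 transcript in HS578T minus SUM159PT from 21.5 to 30.8 points. The call for TPM2 (exact permutation adjusted p 0.0144) was lost without replicate 1 (0.114) or 3 (0.152). The call for CALD1 (exact permutation adjusted p 0.00649) was lost without replicate 1 (0.0857).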

Other observations

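The genes whose pattern was most like that of TAGLN over the 18 group means, each centred on its line, were SLC36A1 (r = 0.887), SEC22A (r = 0.860), AAGAB (r = 0.851), DDX10 (r = 0.845) and TPM4P3 (r = 0.837), out of 16363 genes. TPM4P3 is a pseudogene of the member TPM4 and can share reads with it. For ACTA2 the nearest named genes were PPP1R3F (r = 0.827), LTF (r = 0.807) and DHRS7 (r = 0.803). Between members, TAGLN and ACTG2 had r = 0.815 over the same group means. These are descriptions over groups that share control cultures and libraries. MYOCD, the muscle cofactor of SRF, was 3.09 ± 0.59 (log2, SE) higher in HS578T shNT than in siNT (adjusted p 0.0029 by edgeR).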
